A study of Mus musculus with 12 samples.

Results

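Gmfg and Sh3pxd2b are 2 of the 58 mouse gene models measured in this series, and both encode proteins that act on the actin cytoskeleton. Their members were all entries named for either gene, or carrying the same gene model name, in the 6 deposited tables, with repeated entries dropped. This gave 24 exon bins of 925 in all, 9 of Gmfg and 15 of Sh3pxd2b, where an exon bin is a non-overlapping part of the exons of a gene model. All RNA was from D1, a mouse cell line whose tissue the labels do not give. The 12 samples were mixtures of sequencing reads made on a computer, with 5 replicates per sample. A background of TruSeq reads, from a poly(A)-selected and unstranded library, came from 1000 ng or 100 ng of RNA that carried the ERCC spike-in mix. To it were added reads of listed transcripts, drawn from 20M, 40M or 80M source reads (M, 1e6) of 1 kit. The kits were NuGENv2, with 2 ng of RNA as input, and TruSeq, with 100 ng. Both backgrounds also held synthetic reads spread evenly over other listed transcripts. Each table covered 1 kit and 1 depth, with 5 columns of each background. Nothing says that replicates came from separate cultures, so p-values measure only the spread between these columns.

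Gmfg, glia maturation factor gamma, belongs to the ADF/cofilin family and is known for binding the Arp2/3 complex and taking apart the branches of actin networks, mainly in blood cells. Sh3pxd2b, also called Tks4, is a scaffold protein with a PX domain and several SH3 domains that is phosphorylated by Src kinases. It is needed for podosomes and invadopodia, the actin-rich protrusions with which cells attach to and degrade matrix.

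The 2 genes were listed in different ways. Of the Gmfg model, the transcript uc009fyx.1 was listed for kit reads in the 1000 ng background, and none was listed in the 100 ng background. Of the Sh3pxd2b model, uc007ijo.1 was listed for synthetic reads in the 1000 ng background. Its other isoforms uc007ijq.1 and uc007ijp.1 were listed for synthetic reads in the 100 ng background. Bins could not be assigned to these isoforms, so a value below is that of a bin or of a whole model.

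Both genes lie on the plus strand of mouse build NCBIM37, the same assembly as the mm9 named in the submitters' processing notes. GENCODE places Gmfg on chromosome 7 from 29222466 to 29233252 and Sh3pxd2b on chromosome 11 from 32247820 to 32328173. Matching bin lengths to annotated exons placed 7 of the 9 Gmfg bins and 11 of the 15 Sh3pxd2b bins. A bin was placed where its inferred length equalled the end minus the start of the exon. Gmfg E003, for example, has an inferred length of 96 and spans 97 bases. The stretches below are shown because reads of the 2 kits fell on different sides of the Gmfg exon E004, and because the replicates of Sh3pxd2b took unlike shares of reads in its long bins. Gmfg E003 and E008 are coding exons, where the TruSeq and the NuGENv2 additions were largest. The third stretch crosses the end of Sh3pxd2b exon E004, with the 30 bases beyond that end in capitals. There GENCODE annotates a retained-intron transcript that runs on for 2296 bases, from 32288005 to 32290300. The next bin, E005, has an inferred length of 2327 and was not matched to it. All are printed 5′ to 3′ on the plus strand of NCBIM37.
Gmfg E003, chr7:29226453-29226549: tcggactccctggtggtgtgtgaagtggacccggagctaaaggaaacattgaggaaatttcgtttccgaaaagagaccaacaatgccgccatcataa
Gmfg E008, chr7:29230936-29231009: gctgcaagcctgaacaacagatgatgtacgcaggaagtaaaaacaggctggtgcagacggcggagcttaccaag
Sh3pxd2b E004 end, chr11:32287975-32288034: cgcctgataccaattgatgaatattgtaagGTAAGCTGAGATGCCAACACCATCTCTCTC

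Recovered reads over all bins ranged from 237258 to 593002 per replicate, leaving out the sample of 100 ng background and 20M TruSeq reads. That sample stood apart, with 1101798 to 1281559, and results that rest on it are given separately. Tables of 1 background shared its reads: for every Gmfg and Sh3pxd2b bin, the difference between tables was the same number of reads in all 5 replicates. The tables are therefore no independent repeats of each other. Columns were scaled to FPKM equivalents (reads per kilobase of bin and per 1e6 library reads) with size factors. How a read that crosses the edge of a bin was counted is not given, so levels are compared within a bin, and between bins only where all are long.

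Gmfg gained reads only in the 1000 ng background that lists it, except in the sample that stood apart, and the 2 kits put them on opposite sides of exon E004. With TruSeq source reads, Gmfg held 3 bin reads per replicate above its lowest table at 20M, 12 at 40M and 22 at 80M. All 22 lay in E001 to E003 at the 5′ side, a share of 100% (exact 95% binomial interval 84.6 to 100). With NuGENv2 source reads it held 3, 3 and 8 above the lowest table, and all 8 lay in E005 to E009, so that 0% fell in E001 to E003 (interval 0 to 36.9). The lowest table was taken bin by bin, and reads that both kits added at every depth would not show. Intervals cover counting error only, and a read that spans a splice junction may be counted in several bins. The added reads were identical in every replicate, so the difference between kits has no replicate error and was not tested.

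Bin by bin, 80M TruSeq reads put 5 reads in E001, the exon that holds the start of the coding sequence, 8 in E002 and 9 in E003. E001 spans 29222466 to 29222593 and is part coding. E002 was not matched, and the annotated first exon of the alternative transcript Gmfg-002, from 29225946 to 29226060, has 115 bases against its inferred length of 104. E003 was at its lowest at 20M TruSeq reads and held 4 more at 40M. With 80M NuGENv2 reads, E008 took 4 reads and E005, E006, E007 and E009 took 1 each. E004, a coding exon from 29226688 to 29226737, held no read above its lowest table with either kit. The TruSeq additions were on the exons before E004 and the NuGENv2 additions on those after it.

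**Figure D1:**
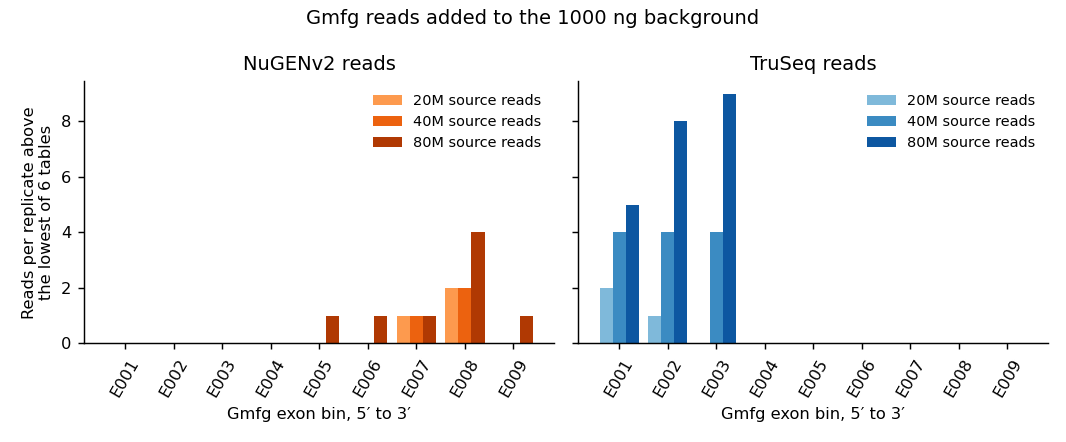
Bars give Gmfg reads per replicate above the lowest of the 6 tables in the 1000 ng background (vertical axis, reads) for each exon bin in 5′ to 3′ order, with NuGENv2 reads on the left and TruSeq reads on the right, and shades for 20M, 40M and 80M source reads. TruSeq bars stand in E001 to E003 and reach 9 reads, and NuGENv2 bars stand in E005 to E009 and reach 4.

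Depth raised the Gmfg addition unevenly. From 20M to 40M it gained 9 reads with TruSeq (exact 95% Poisson interval 4.12 to 17.1) and 0 with NuGENv2, which allows up to 3.69. From 40M to 80M it gained 10 reads with TruSeq (4.80 to 18.4) and 5 with NuGENv2 (1.62 to 11.7), and these intervals overlap. Both were the lowest gains among the 9 models listed for kit reads in the 1000 ng background. The next lowest, Ppp2r3a, a regulatory subunit of protein phosphatase 2A, gained 36 and 41.

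The position of the gain was also compared with the other kit-read models. Weighted by reads, the TruSeq gain of Gmfg from 40M to 80M lay on average 17.9% along the model from its 5′ end, and the NuGENv2 gain 52.8% along it. The difference of TruSeq minus NuGENv2 was thus -34.9 percentage points. Over 22 other combinations of model and background with a gain from both kits, the difference ran from -28.9 to 35.6 with a median of 3.85, and the TruSeq gain was nearer the 5′ end in 7 of them. Gmfg lay outside that range, on the smallest number of reads of any of these models, and the difference was not tested.

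Apart from these reads Gmfg was sparse. At the lowest of the tables its 9 bins held 41, 70, 41, 48 and 21 reads in 1000 ng replicates 1 to 5. In the 100 ng background they held 9, 17, 53, 46 and 39 reads in every table but that of 20M TruSeq. Replicate 5 was the lowest of the 1000 ng columns and replicate 1 the lowest of the 100 ng columns, and the groups overlapped. At 80M TruSeq the 22 added reads made up 23.9% to 51.2% of the Gmfg reads of a 1000 ng replicate. At 80M NuGENv2 the 8 added reads made up 10.3% to 27.6%.

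As a whole model, Gmfg was higher in the 1000 ng background than in the 100 ng background with 80M TruSeq reads, by a narrow margin. The same 22 reads above the lowest table were in every 1000 ng replicate, while the 100 ng replicates gained 0. The tests of this total therefore include a shift made in the mixing, which has no replicate error. Recovered reads were 63, 92, 63, 70 and 43 in the 1000 ng replicates. Scaled levels there were 2.07, 1.78, 2.27, 2.26 and 1.70 FPKM equivalents, against 0.429, 0.880, 1.30, 1.31 and 1.99 in the 100 ng replicates. The groups overlapped, because 100 ng replicate 5 was above 1000 ng replicates 2 and 5. The mean was 2.01 ± 0.264 against 1.18 ± 0.578 FPKM equivalents (SD, n = 5). The log2 fold change of 1000 ng over 100 ng, on log2(value + 1), was 0.50 with an SE of 0.18 (limma adjusted p = 0.0452). Of the 58 gene totals 41.4% passed the threshold of 0.05, so a call was common. An exact permutation test over the 10 columns, two-sided, gave p = 0.0238 and an adjusted p of 0.0575, which does not pass, while 36.2% of totals passed it. The limma call was kept without 100 ng replicate 5 and lost without any other replicate of either background, with adjusted p from 0.00958 to 0.106.

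At the other kits and depths the Gmfg total did not pass. With 40M TruSeq reads the levels were 1.69, 1.53, 1.87, 1.89 and 1.29 FPKM equivalents in the 1000 ng replicates, and the log2 fold change was 0.33 (SE 0.18, limma adjusted p = 0.207). With 80M NuGENv2 reads the levels were 1.55, 1.43, 1.70, 1.74 and 1.12, and the log2 fold change was 0.24 (SE 0.18, limma adjusted p = 0.400). At 20M and 40M NuGENv2 reads, where Gmfg had the same reads, it was 0.13 in both (SE 0.18, limma adjusted p = 0.788 and 0.763). The groups overlapped in all of them, and 100 ng replicate 5, at 2.00 in each table, lay above every 1000 ng replicate. Gene totals passed in 39.7%, 24.1%, 17.2% and 5.17% of models in the tables of 40M TruSeq and of 80M, 40M and 20M NuGENv2 reads. Without 100 ng replicate 5 the total at 40M TruSeq passed narrowly (log2 fold change 0.45, limma adjusted p = 0.0496).

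**Figure D2:**
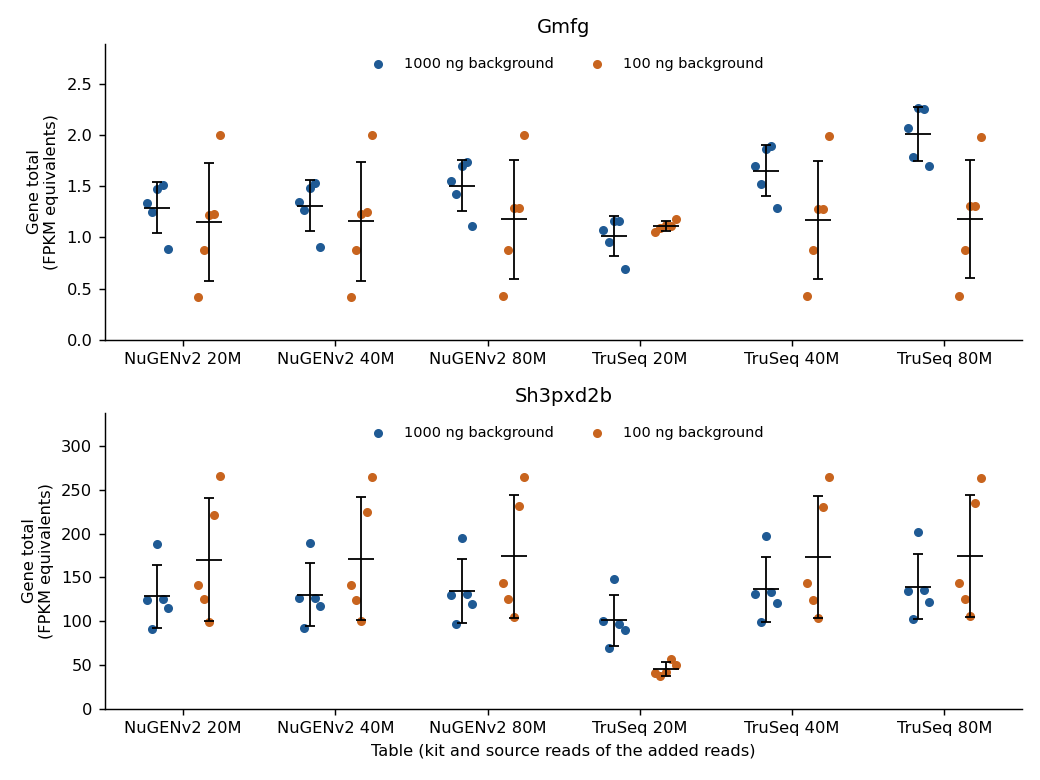
Points give the scaled total of each gene (vertical axis, FPKM equivalents) in each of 5 replicates of the 1000 ng (blue) and 100 ng (orange) backgrounds in the 6 tables, and bars the mean and SD. Gmfg in the 1000 ng background has a mean of 1.01 at 20M TruSeq, 1.29 at 20M NuGENv2 and 2.01 at 80M TruSeq. The means at 20M TruSeq and 20M NuGENv2 rest on the same mean of 47.2 reads and differ through scaling. Sh3pxd2b separates by background only in the 20M TruSeq table.

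Resolved by bin, limma called 3 of the 9 Gmfg bins at 80M TruSeq reads, E001, E002 and E003, all higher in the 1000 ng background. These are the bins that took the added reads, the same number in every 1000 ng replicate, so their calls include a shift made in the mixing. Of all 922 bins tested there 21.4% were called, and 7.92% were called higher in the 1000 ng background. The median log2 fold change of the Gmfg bins was 0.20, against 0.04 over all tested bins. The exact permutation test called 2 of the 9 and 18.3% of all bins, and limma voom on the recovered reads called 3 of the 9 and 21.3%. With a pseudocount of 0.1 in place of 1, limma called 1 of the 9, and on the values as deposited it called 0, or 1 without the fifth 100 ng column. That column is in another unit, and shares of all bins under these alternatives are not given here.

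E001 held 15, 18, 10, 15 and 6 reads in the 1000 ng replicates and 2, 3, 7, 7 and 4 in the 100 ng replicates. Its level was 3.68 ± 1.02 against 1.58 ± 0.419 FPKM equivalents (SD, n = 5). The lowest 1000 ng replicate, at 2.26, was above the highest 100 ng replicate, at 1.95. The log2 fold change was 0.85, with an SE of 0.18 (limma adjusted p = 0.00687), the smallest adjusted p of any Gmfg bin in this table. How many of all bins did not overlap is not given here, and 18.3% of all bins passed the permutation test.

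E003 held 20, 27, 19, 22 and 13 reads in the 1000 ng replicates and 1, 6, 13, 8 and 9 in the 100 ng replicates. Its level was 7.81 ± 1.17 against 3.45 ± 1.91 FPKM equivalents, and the scaled groups did not overlap, with 6.49 the lowest of the first and 5.80 the highest of the second. The log2 fold change was 1.12 (SE 0.34, limma adjusted p = 0.0410). E002 held 10, 12, 12, 10 and 8 reads against 0, 3, 5, 3 and 5. Its level was 3.81 ± 0.827 against 1.44 ± 1.09 FPKM equivalents, with an overlap between 1000 ng replicate 2, at 2.72, and 100 ng replicate 5, at 2.97. The log2 fold change of E002 was 1.10 (SE 0.32, limma adjusted p = 0.0376).

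The remaining 6 bins, E004 to E009, did not pass, with log2 fold changes from -0.04 in E007 to 0.20 in E006 and E008. E007, a coding exon from 29229872 to 29229954, measured 1.96 ± 0.263 against 2.22 ± 1.20 FPKM equivalents. E008 measured 3.06 ± 0.610 against 2.75 ± 1.46. E005, from 29228126 to 29228238, is where the alternative transcript Gmfg-003 starts and is not part of the main coding transcript. It was nearly empty, with 1, 1, 1, 1 and 0 reads against 0, 1, 0, 1 and 0. E004, E006 and E009 also overlapped between the backgrounds. E006 adjoins E005, from 29228239 to 29228288, and E009, the last and longest bin with an inferred length of 523, was not matched to an annotated exon.

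**Figure D3:**
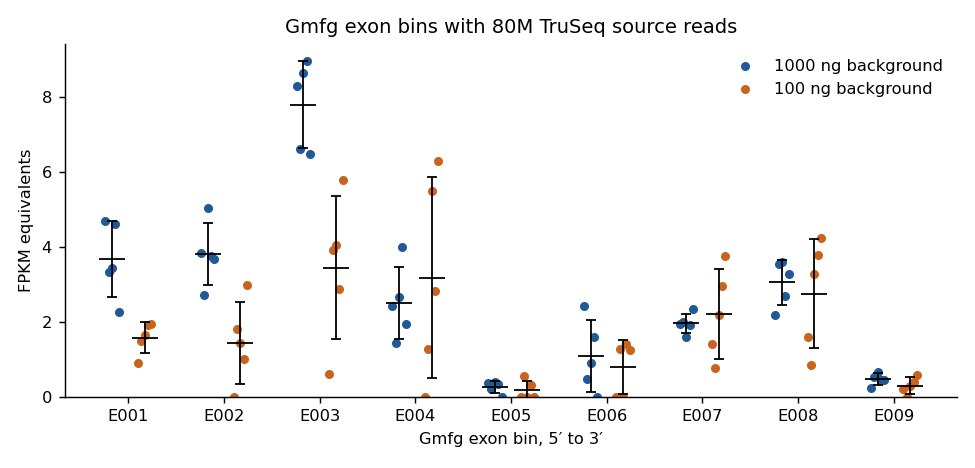
Points give each Gmfg exon bin (horizontal axis, 5′ to 3′) in FPKM equivalents (vertical axis) for each replicate of the 1000 ng (blue) and 100 ng (orange) backgrounds with 80M TruSeq source reads, and bars the mean and SD of 5. E001 and E003 do not overlap between the backgrounds, and E002 overlaps by 1 replicate on each side.

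The difference in the profile of bins was tested directly with limma diffSplice, which asks whether bins of 1 model change unlike each other. For Gmfg at 80M TruSeq reads its adjusted p was 0.114, so the model did not pass, while 46.6% of models did. Of single bins, E003 came nearest, with a usage difference of 0.79 on the log2 scale (diffSplice adjusted p = 0.115), while 19.1% of all bins passed. Bins E001 to E003 passed the test of level, and their difference from the rest of the model did not pass.

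At the lower depths fewer Gmfg bins passed. With 40M TruSeq reads limma called E001 alone of the 9, where 16.9% of all bins were called. Voom called 1 of the 9, where it called 17.7% of all bins, and the permutation test 0, as of all bins. E001 measured 3.29 ± 1.00 against 1.57 ± 0.414 FPKM equivalents, 0.72 higher on the log2 scale (SE 0.19, limma adjusted p = 0.0279), and the groups overlapped. The call was lost without 1000 ng replicate 1, 3 or 4, or without 100 ng replicate 1, 2 or 3. Shares of all bins called without these replicates are not given here. With 80M NuGENv2 reads limma called 0 of 9, where 12.3% of all bins were called. An unadjusted p under 0.05 was found in 229 of all 922 tested bins and in 2 of the 9. They were E005, with 2, 2, 2, 2 and 1 reads against 0, 1, 0, 1 and 0 (log2 fold change 0.45, limma adjusted p = 0.0863), and E008. E008 held 8, 15, 10, 9 and 9 reads against 2, 1, 8, 8 and 5, 0.78 higher on the log2 scale (SE 0.28, limma adjusted p = 0.107). Both lie on the 3′ side, where the NuGENv2 reads were added. At 20M and 40M NuGENv2 reads 0 of 9 passed, against 1.95% and 4.99% of all bins called. There 0 of 9 had an unadjusted p under 0.05, against 164 and 189 of all 922 tested bins. In the 3 NuGENv2 tables the permutation test called 0 of the 9 and 0% of all bins. Voom called 0 of the 9 there, and 3.04%, 4.77% and 13.0% of all bins at 20M, 40M and 80M.

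Calls of Gmfg bins at 80M TruSeq also changed when single columns were left out. The number called fell to 1 without 1000 ng replicate 1, 3, 4 or 5 and without 100 ng replicate 3 or 4. With 80M NuGENv2 reads it was 1 without 100 ng replicate 2. Shares of all bins called without these columns are not given here, so these counts are not read as particular to Gmfg.

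Sh3pxd2b was measured with far more reads, and no difference between backgrounds passed the test in the 5 tables without the sample that stood apart. Its recovered reads were 37956, 49080, 51770, 39035 and 28698 in the 1000 ng replicates, in all 6 tables. In the 100 ng replicates they were 27915, 22301, 39961, 76291 and 47722, in those 5 tables. None of its 15 bins gained a read with kit or depth there. In reads before scaling, the 100 ng replicates spread more widely, with 3.42 times as many in the highest as in the lowest, against 1.80 times in the 1000 ng background. These ratios include differences in library size. Scaled totals at 80M TruSeq ran from 106.36 to 263.00 FPKM equivalents in the 100 ng replicates and from 102.95 to 201.61 in the 1000 ng replicates. The backgrounds list different Sh3pxd2b isoforms for synthetic reads, so RNA input and listed isoform cannot be told apart. How many of the Sh3pxd2b reads in a bin or total are synthetic was not tested.

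The scaled total of Sh3pxd2b at 80M TruSeq reads was 134.66, 102.95, 201.61, 136.09 and 122.44 FPKM equivalents in the 1000 ng replicates. In the 100 ng replicates it was 143.99, 124.88, 106.36, 234.88 and 263.00. Replicates 4 and 5 of the 100 ng background were above every 1000 ng replicate, and the other 3 lay among them. The log2 fold change was -0.27 (SE 0.28, limma adjusted p = 0.531, exact permutation p = 0.357). Leaving out 1 replicate moved it between -0.42 and -0.10. In the other 4 of these tables it ran from -0.35 at 20M NuGENv2 to -0.29 at 40M TruSeq, with limma adjusted p from 0.473 to 0.535. Since the reads did not change, these values differ only through scaling. Without scaling, the direction was reversed: on the values as deposited and without the fifth 100 ng column, which is in another unit, the log2 fold change was 0.07 in each of them.

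Of the 15 Sh3pxd2b bins, limma called 0 in each of these 5 tables. An unadjusted p under 0.05 was found in 0 of the 15, against 164 to 277 of all 922 tested bins. The permutation test and voom also called 0 of the Sh3pxd2b bins, against the shares of all bins given above for them. With NuGENv2 reads and at 40M TruSeq the permutation test called 0 of all 922 bins, so its 0 there is no result about Sh3pxd2b. At 80M TruSeq the median log2 fold change of the bins was -0.32, against 0.04 over all tested bins, and 1 of the 15 was positive. That bin was E005, at 0.66, with 119.87 ± 87.2 against 78.9 ± 69.6 FPKM equivalents (SD, n = 5, limma adjusted p = 0.637). The lowest was E015, the last bin, at -0.47, with 94.6 ± 15.2 against 152 ± 87.1 (limma adjusted p = 0.516). The profile of bins did not pass in diffSplice either, with an adjusted p of 1.00 for the model and of 0.213 for the usage of E005.

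The spread of Sh3pxd2b between replicates was uneven along the model. In the 1000 ng background the highest replicate had 7.61 times the reads of the lowest in E005 and 8.78 times in E010, against 2.12 to 3.5 times in the other 13 bins. In the 100 ng background this ratio was 9.07 in E005 and 8.09 to 14.5 in E011 to E015, the highest in the coding exon E013, against 2.61 to 3.43 in the rest. The long bins, whose levels can be set side by side, did not move together from replicate to replicate. E005, E010 and E015 have inferred lengths of 2327, 1484 and 6160 and were not matched to annotated exons, while all bins between them that were matched are short coding exons. E005 held 7262, 3264, 8743, 14215 and 1869 reads in the 1000 ng replicates and 3715, 795, 1914, 4330 and 7210 in the 100 ng replicates. E010 held 7249, 6171, 10168, 1158 and 4286 reads, and 8773, 3883, 3024, 6899 and 2560. In 1000 ng replicate 4, E005 was the highest of its background and E010 the lowest.

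E015 held 11269, 24886, 15744, 13845 and 13543 reads in the 1000 ng replicates and 5245, 10579, 24026, 42524 and 24635 in the 100 ng replicates. Replicate 4 of the 100 ng background was the highest and its replicate 1 the lowest of all 10 columns. Expressed per kilobase and as a share of the 3 long bins together, E005 took 13.6% to 66.9% in the 1000 ng replicates, with a median of 28.5%. In the 100 ng replicates it took 7.31% to 35.1%, with a median of 13.9%. E010 took 8.54% to 52.0% (median 49.0%) and 19.6% to 70.7% (median 34.7%). E015 took 18.6% to 42.1% (median 24.6%) and 10.2% to 57.7% (median 45.3%). The ranges of the backgrounds overlapped for all 3 bins.

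**Figure D4:**
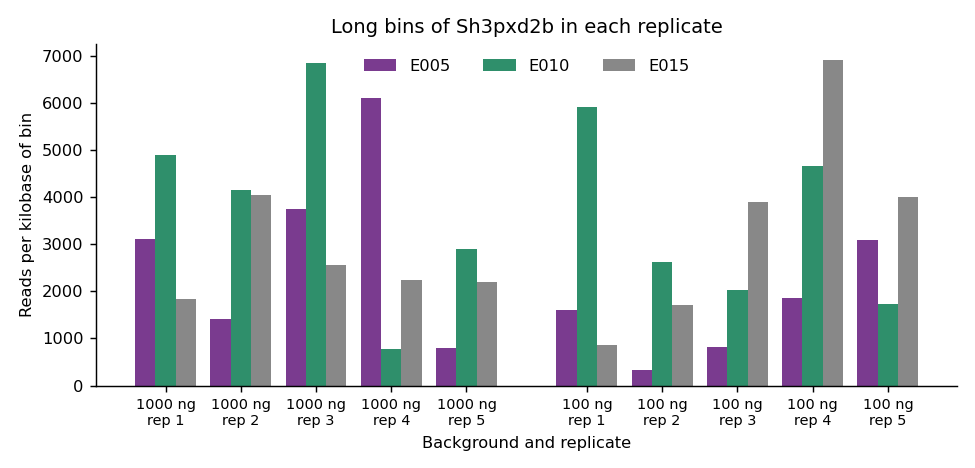
Bars give reads per kilobase of the long Sh3pxd2b bins E005, E010 and E015 (vertical axis) in each replicate of the 1000 ng and 100 ng backgrounds, the same in all tables but that of 20M TruSeq for the 100 ng background. The bin with the highest bar differs between replicates of 1 background: E005 leads in 1000 ng replicate 4, E010 in the other 4 1000 ng replicates.

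The sample that stood apart, of 100 ng background and 20M TruSeq reads, held a further set of reads, with the same number per bin in all 5 replicates. It added 250 reads to Gmfg (exact 95% Poisson interval 220 to 283) and 63927 to Sh3pxd2b. Per kilobase of model these were 206 and 5692 reads, ranks 55 and 8 of 58 models from the highest, where the median model took 810. Models differ in the lengths of their bins, and the counting at bin edges is not given, so these ranks are only a rough description. Neither gene is listed for kit reads in the 100 ng background. What these reads are was not tested.

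In this added set Gmfg was covered on both sides of E004. E001 to E003 took 121 of the 250 reads, or 48.4% (exact 95% interval 42.1 to 54.8), and E005 to E009 took 105, or 42.0% (35.8 to 48.4). E004 took 24 reads. E005, the start of Gmfg-003, took 2. This differs from the TruSeq additions to the 1000 ng background, all of which lay in E001 to E003, and the difference has no replicates and was not tested.

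In Sh3pxd2b the added set all but left out 2 of the long bins. E015 took 49885 reads, 78.0% of the added reads, at 8098 per kilobase. E010 took 552, at 372 per kilobase, and E005 took 171, at 73.5 per kilobase. Per kilobase E015 took 110.2 times as many as E005 and 21.8 times as many as E010. The short coding bins E002 to E004, E006 to E009 and E011 to E014 took 699 to 1978 reads each. In the columns without this set, E005 was above E015 per kilobase in 4 of 10 and E010 in 6 of 10, as in 1000 ng replicate 1 with 3121 and 4885 against 1829.

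**Figure D5:**
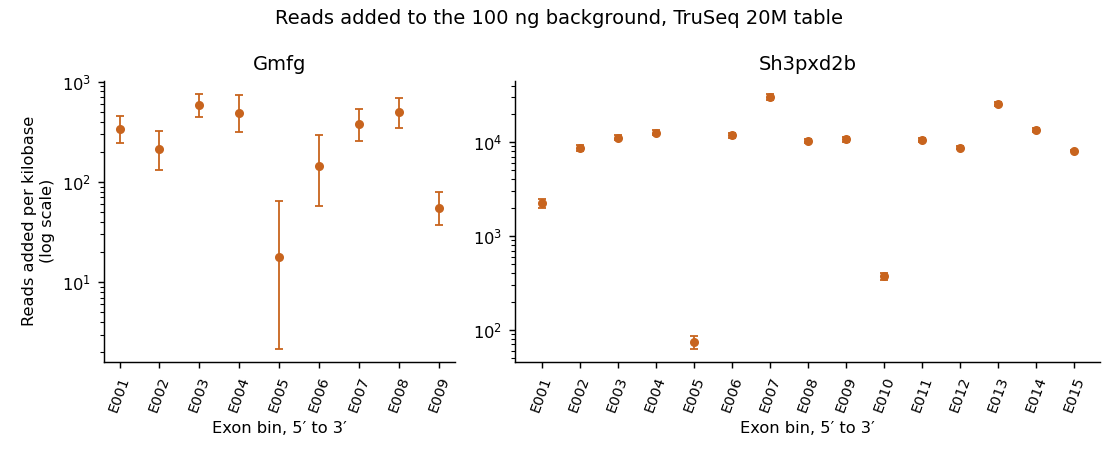
Points give the reads added to the 100 ng background in the 20M TruSeq table per kilobase of each bin (vertical axis, log scale) for Gmfg (left) and Sh3pxd2b (right), with exact 95% Poisson intervals. Of the long Sh3pxd2b bins, E005 and E010 lie at 73.5 and 372 and E015 at 8098, and short bins are not to be compared with long ones.

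With these reads the 20M TruSeq table gave other calls than the rest. The 100 ng total of Sh3pxd2b was 91842, 86228, 103888, 140218 and 111649 reads. The same 63927 added reads were in each of these replicates. With them the highest replicate had 1.63 times the reads of the lowest, against 3.42 times without them. Tests in this table therefore include a shift made in the mixing, which has no replicate error and narrows the spread. After scaling it was 40.5, 38.0, 41.5, 57.1 and 49.5 FPKM equivalents, below the 1000 ng replicates at 100.19, 69.7, 147.84, 96.4 and 89.97. The groups did not overlap, and the log2 fold change was 1.11 (SE 0.19, limma adjusted p = 0.000702, exact permutation p = 0.00794, the smallest 5 against 5 columns can give). Of all gene totals 79.3% passed there. The direction rests on the scaling: without it, and without the fifth 100 ng column, the log2 fold change was -1.15 (limma adjusted p = 0.000169).

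In that table limma called 14 of the 15 Sh3pxd2b bins, all higher in the 1000 ng background, where 62.4% of all bins were called and 32.6% were called higher in that background. The highest was E005, 3.16 higher on the log2 scale (SE 0.66, limma adjusted p = 0.00323), and E015 alone did not pass (0.30, limma adjusted p = 0.0978). This direction also rests on the scaling: on deposited values without the fifth 100 ng column, 10 bins were called and all 10 were higher in the 100 ng background. On all deposited values, which mix units, 0 were called. Shares of all bins on deposited values are not given here, so these counts are not read as particular to Sh3pxd2b. Recovered reads of E012, for example, were 495, 1250, 836, 692 and 689 in the 1000 ng replicates against 2185, 2497, 3151, 4260 and 3332. The profile of Sh3pxd2b bins passed in diffSplice (adjusted p = 6.89e-08), as did 58.6% of models. Bin calls and diffSplice here also include the added reads that were identical in all 100 ng replicates. E005 was used more in the 1000 ng background, by 1.85 on the log2 scale (diffSplice adjusted p = 3.29e-05), and E015 less, by -1.21 (diffSplice adjusted p = 0.0110), where 18.1% of all bins passed.

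Gmfg in that table held 44, 73, 44, 51 and 24 reads in the 1000 ng replicates and 259, 267, 303, 296 and 289 in the 100 ng replicates. The same 250 added reads were in each of these 100 ng replicates. The SD of their scaled total was 0.0472 FPKM equivalents, against 0.578 at 80M TruSeq. The tests of Gmfg here therefore include a shift made in the mixing, which has no replicate error and narrows the spread. Scaled, the totals were 1.07, 0.959, 1.16, 1.16 and 0.695 FPKM equivalents in the 1000 ng replicates against 1.06, 1.09, 1.12, 1.11 and 1.18, and the groups overlapped. The log2 fold change was -0.08 (SE 0.07, limma adjusted p = 0.303). With size factors from bins that hold the same reads in every table it was -0.26 and passed (limma adjusted p = 0.00885). Of its 9 bins, limma called E004 (-0.43, limma adjusted p = 0.0356) and E007 (-0.34, limma adjusted p = 0.00144), both higher in the 100 ng background, as were 29.7% of all bins. The number called was 1 without 1000 ng replicate 1 or without any 1 of the 100 ng replicates, and 4 without 1000 ng replicate 3. It was 4 with those other size factors, 8 on deposited values without the fifth 100 ng column and 0 on all deposited values. Shares of all bins under these alternatives are not given here, so these counts are not read as particular to Gmfg.

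No other gene of their pathway could be set beside the members: 0 of 20 genes of the Arp2/3 complex, its regulators and podosome scaffolds were in the tables. Of 10 dendritic cell markers, Sirpa and Mgl2 were present, and 0 of 3 T cell, 0 of 2 B cell and 0 of 2 fibroblast markers were. The identity of the cells was therefore not tested. Across the 10 columns at 80M TruSeq reads, the gene totals most like that of Gmfg on the log2 scale were those of Myadm (Pearson r = 0.69), Aes (0.66) and Copa (0.62). All 3 are listed for kit reads in the 1000 ng background, as Gmfg is. Among those most like Sh3pxd2b were Slc25a35 (0.56) and Tmem62 (0.45). The 10 columns share their size factors across genes, and the values are descriptions without a test.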

How the data were processed

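RNA sequencing reads mixed on a computer were measured over exon bins in 12 samples with 5 replicates each. The submitters' processing notes name STAR, Cuffdiff and mm9. The sources used here do not give the counting method. Per the file headers, tables were assigned to kits and depths by name. The deposited values were a signal, found here to be reads divided by bin length. The fifth 100 ng column was divided further by a number taken for its library total (unit 1e6 reads). Lengths (up to 19999 tried) and that divisor were inferred, and reads were recovered as whole numbers within 0.001, or 0.05 for the fifth column. Of 1744 entries per table, 818 repeated another, and 1 bin without finite values was dropped. A further 2 bins without reads were not tested.

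Size factors were medians of ratios, set to the level of the fifth column. limma 3.58.1 in R 4.3.3 (lmFit, eBayes, two-sided) was fitted to log2(FPKM equivalent + 1) over each whole table, 5 columns against 5, with Benjamini-Hochberg adjustment. Bins of unlisted models needed a mean of at least 1. Fold changes on this scale understate low values. The scripts were tested on simulated data. The planned scale was changed because of the units found. The members, lists and tests were chosen with earlier results of these data known. Named were both genes, every Gmfg bin, the Sh3pxd2b bins that passed, gained reads or had the highest or lowest fold change, and the 3 most similar models, of which 1 is not reported here. The long Sh3pxd2b bins were also described, after their values were seen. Alternatives were unscaled values, other size factors, a pseudocount of 0.1, no filter, a block, a permutation test, voom, and each replicate left out.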

Additional observations from a re-analysis of the deposited data

How the results depend on the processing

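Of 432 values from 24 results under 18 alternatives, 366 kept their direction and their side of the threshold, or a count within 1.5 times. These include counts that were 0 in both, and totals without a call that kept their sign. The number is therefore no measure of how firm the calls are. For the values below that were not kept, the cause was not tested unless it is named. Values as deposited with all columns mix units, because the fifth 100 ng column was divided further, so they are no like comparison. The Gmfg total at 80M TruSeq (log2 fold change 0.50) lost its call with values as deposited (0.047), these without the fifth 100 ng column (0.04), size factors from shared bins (0.45), a pseudocount of 0.1 (0.85), the permutation test (0.50) and voom (0.89). At 20M TruSeq it passed with deposited values without the fifth column (-0.25) and with size factors from shared bins (-0.26). Called Gmfg bins at 20M TruSeq numbered 0 as deposited, 8 without the fifth column and 4 with shared-bin size factors. At 40M TruSeq they were 0 as deposited, with and without that column, and 0 by permutation, whose smallest p is bounded by the number of columns. At 80M TruSeq they were 0 as deposited, 1 without that column and 1 with a pseudocount of 0.1. Shares of all bins under these alternatives are not given here.

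The Sh3pxd2b total reversed on deposited values, which mix units, to 0.43 in 5 tables and to -0.49 at 20M TruSeq. Without the fifth column it reversed to 0.075 and -1.15. As deposited, 0 Sh3pxd2b bins were called at 20M TruSeq, and the share of all bins there is not given here.

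Columns with the same replicate number did not deviate together (correlations of -0.37 to 0.07 at 80M TruSeq, 0 of 5 best with their own number), so the numbers were not taken as pairs. With a replicate block the Gmfg total at 80M TruSeq kept 0.50 and lost its call (limma adjusted p = 0.0844). Called Gmfg bins were then 1, 0 and 1 at 20M, 40M and 80M TruSeq, and shares of all bins with this block are not given here.

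Leaving out 1 replicate moved the Gmfg total between -0.012 and 0.26 at 20M and between -0.0062 and 0.26 at 40M NuGENv2 (the lowest without 100 ng replicate 1), between 0.19 and 0.45 at 40M TruSeq and between 0.36 and 0.63 at 80M TruSeq. Called Gmfg bins ranged from 0 to 1 at 80M NuGENv2, 1 to 4 at 20M TruSeq, 0 to 1 at 40M TruSeq and 1 to 3 at 80M TruSeq. Shares of all bins with a replicate left out are not given here, so these ranges are not read as particular to Gmfg. The Sh3pxd2b total ranged from -0.52 to -0.10 over the 5 tables other than 20M TruSeq. Gmfg rests on few reads, 43 to 92 per 1000 ng replicate at 80M TruSeq.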
